A study of Macaca fascicularis with 2 samples.

Results

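Osmolyte, water and urea transport genes were examined cell by cell in the nucleus pulposus (NP) and articular cartilage (AC) of cynomolgus monkeys. The group was fixed by name and had 8 genes, the transporters *SLC6A12*, *SLC6A6*, *SLC5A3* and *SLC14A1*, the water channels *AQP1* and *AQP3*, the enzyme *AKR1B1* and the transcription factor *NFAT5*. Of these 8, 6 were among the 21371 genes counted, whereas *AQP1* and *SLC5A3* were not and are not analysed here. The study compared the cell types of the 2 tissues. Its labels describe male wild type monkeys, 3 years old, with NP of the L3/4 disc and AC of the left femoral condyle from 1 animal and AC of the condyle from another, whose sorted live cells were pooled in 1 library made by TAS-seq. TAS-seq amplifies the cDNA of single cells captured on beads. Before pooling, the cells of each sample were marked by a tag bound to their surface. The cells carried 4 tags, A951 to A954, although the labels list 3 tissue samples. No source used here pairs tags with tissues, so the tags were treated as 4 samples of unknown tissue.

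Cells of cartilage and NP sit in a matrix whose fixed negative charges, carried largely by aggrecan, draw in cations and water, so these cells live at a higher osmolarity than most. Cells under such conditions hold their volume by first moving ions and then by accumulating small organic osmolytes, among them betaine, taurine, *myo*-inositol and sorbitol, whose transporters and enzymes are classical targets of NFAT5, also called TonEBP. Aquaporins let water pass, some of them with glycerol, and urea transporters let urea equilibrate. Notochordal cells (NCs) are the large vacuolated cells of the young NP, derived from the notochord, and the other cells of this pool are chiefly chondrocyte-like.

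NCs were defined as cells with at least 5 reads of *KRT19* and at least 5 reads of *TBXT*, a keratin and a transcription factor of the notochord. After the limits of the study on quality, 5653 cells remained, of which 310 were NCs and 5343 were other cells. The NCs numbered 67 of 995 cells in A951 (6.73%), 236 of 1125 in A952 (21.0%), 5 of 1377 in A953 (0.363%) and 2 of 2156 in A954 (0.0928%). Comparisons of NCs between tags therefore rest on A951 and A952, and the 7 NCs of the other tags are given as values. The labels list NP of 1 animal alone, so likeness of NCs between these tags cannot be read as likeness between animals. Depth was alike in both classes, with a median of 186370 reads and 4061 genes per NC and of 199072 reads and 3819 genes per other cell. Levels are the reads of a gene in all cells of a class per 1000000 reads (rpm), with an exact Poisson interval. Shares are of cells with at least 5 reads of a gene unless stated otherwise, with an exact binomial interval. All intervals are 95% intervals and cover counting error only. Reads are not molecules, the pool is 1 library, cells are not replicates, and so no test was made between classes or sets of cells. An outlier criterion was applied across the tags only to flag levels for a closer look.

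Markers that did not define the classes are given as a description. Of 11 further NC markers, 8 were counted and 6 had a level that could be compared, all of them at least 2-fold higher in NCs. *LGALS3*, *NCAM1* and *CA12* were above 5 rpm in both classes. However, *SHH*, *CDH2* and *CA3* (60.1 and 3.04 rpm) passed the limit on level through NCs alone. The same limit left out *FOXA2*, so that the count of 6 cannot support the label. *SHH* was at 98.7 rpm in NCs and 0.847 rpm in other cells, and *CDH2* at 119.6 and 1.16 rpm. *FOXA2* (0.908 and 5.46 rpm) and *NOTO* (0.0151 and 0.0518 rpm), which mark the embryonic notochord, were near 0 in NCs. Of 11 chondrocyte markers 10 were compared, of which 8 were at least 2-fold lower in NCs and 2, *ACAN* and *SOX9*, higher. Other cells held the cartilage collagen gene *COL2A1* at 20072 rpm against 1269 rpm in NCs. Near the limit of the rule were 13 NCs holding 5 to 9 reads of the scarcer marker and 98 other cells holding 1 to 4. *AQP3* was at 837 rpm in those 13 cells and 52.0 rpm in those 98, and *SLC14A1* at 0.546 and 21.0 rpm.

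A gene was compared between NCs and other cells where the mean of its 2 levels was at least 5 rpm, and 9165 genes were. Of all compared genes 25.7% were at least 2-fold higher in NCs and 11.0% at least 2-fold lower, with a median log2 ratio of 0.34. All 6 counted genes of the group passed the limit on level, of which *SLC6A6* and *SLC14A1* were above 5 rpm in 1 class alone. *AQP3*, *SLC6A12* and *SLC6A6* were at least 2-fold higher in NCs, *SLC14A1* was lower, and *AKR1B1* and *NFAT5* were within 2-fold. The same 3 genes were higher and the same 1 lower when the ratio had to pass 2-fold in the pool and also within A951 and within A952. That rule called 17.8% of all compared genes higher and 8.58% lower. The median log2 ratio over the 6 genes was 1.85.

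**Figure D1:**
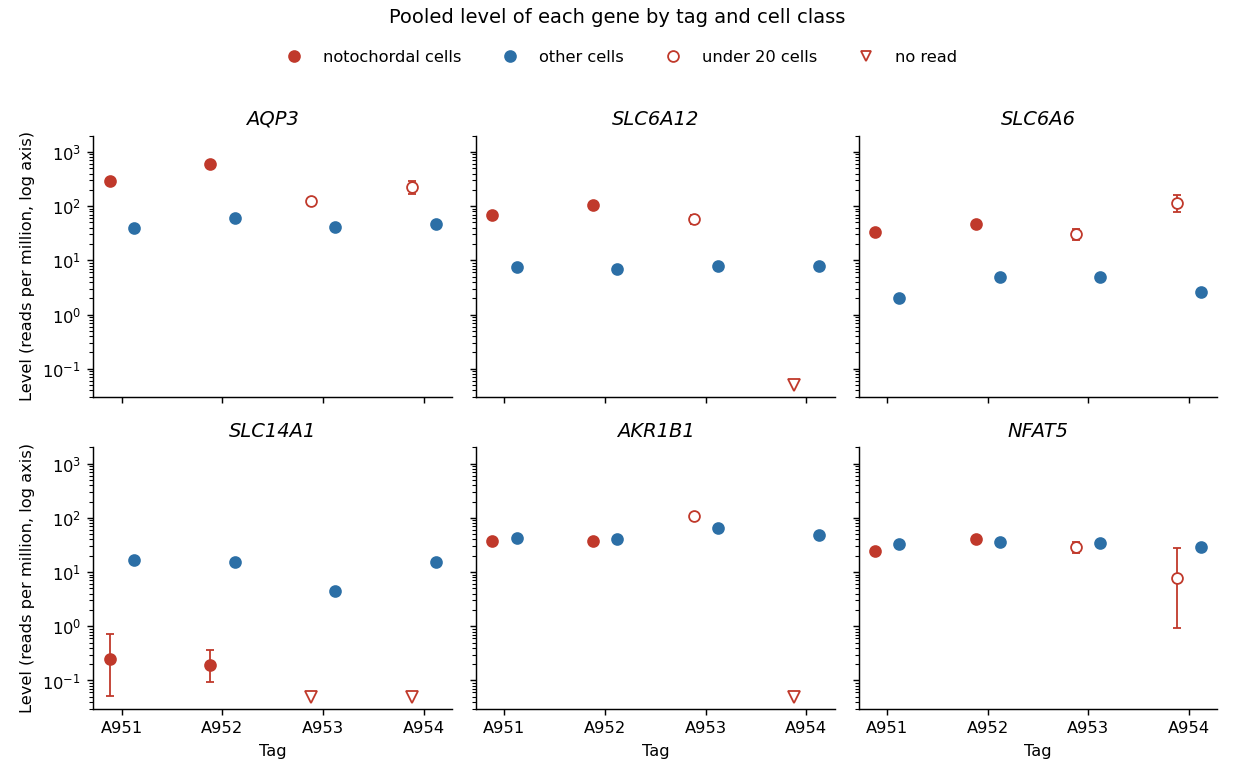
Pooled level of each gene (rpm, log axis) in NCs (red) and other cells (blue) of each tag. Bars are exact 95% Poisson intervals, many of them smaller than the points, open circles stand for fewer than 20 cells and triangles for no read. The NC points of *AQP3*, *SLC6A12* and *SLC6A6* lie above the other cells in A951 and A952, those of *SLC14A1* lie far below, and those of *AKR1B1* and *NFAT5* lie close to them.

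*SLC6A12* encodes BGT1, which carries betaine and GABA into cells. In NCs its level was 68.4 rpm in A951, 106 rpm in A952 and 56.9 rpm in the 5 NCs of A953, with no read in the 2 NCs of A954. In other cells it was 7.60, 7.03, 7.86 and 7.84 rpm in A951 to A954. NCs were thus above the other cells of the same tag in A951, A952 and A953, but not in A954. Other cells of all 4 tags lay within a narrow range, although 10 cells held 73.2% of those reads in A951 and 88.2% in A952. In the pool the level was 97.0 rpm (94.7 to 99.4) in NCs and 7.69 rpm (7.54 to 7.85) in other cells, a log2 ratio of 3.66. At least 5 reads were found in 22.9% of NCs (18.3 to 28.0) and 2.75% of other cells (2.33 to 3.23). The shares in NCs of A951 and A952 were 19.4% and 23.7%, so the betaine transporter was read in similar shares of the NCs of both tags. Its reads came from few cells, and 10 cells held 53.1% of all *SLC6A12* reads of NCs.

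*SLC6A6* encodes TauT, the taurine transporter. Its level in NCs was 33.7 rpm in A951, 46.4 rpm in A952, 30.0 rpm in A953 and 114 rpm in A954, the last from 1 of 2 cells. Other cells had 1.98, 4.87, 4.86 and 2.57 rpm in the same order. Within A951 and within A952 the level of NCs was above that of other cells. The pooled levels were 43.7 rpm (42.1 to 45.4) and 3.40 rpm (3.30 to 3.50), a log2 ratio of 3.68. The shares were 20.6% of NCs (16.3 to 25.6) and 1.55% of other cells (1.24 to 1.92). Within A951 they were 13.4% and 0.970%, and within A952 22.0% and 1.80%. *SLC6A6* thus stood higher in NCs by level and by share of cells with at least 5 reads in each tag that could be compared. In A951 1 cell held 21.2% and 10 cells 99.3% of the *SLC6A6* reads of NCs. Without the richest cell of each class the log2 ratio there was 4.08. The shares of A951 with at least 1 read were 19.4% of NCs (10.8 to 30.9) and 13.9% of other cells (11.7 to 16.3), whose intervals overlap.

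*AQP3* encodes a channel for water and glycerol. Its level in NCs was 297 rpm in A951, 588 rpm in A952, 123 rpm in A953 and 224 rpm in A954, and other cells had 39.5, 60.6, 41.7 and 47.7 rpm. NCs had the higher level within A951 and within A952. In A953 1 NC held 99.6% of the *AQP3* reads of NCs, and in A954 1 NC held all of them. The pooled levels were 517 rpm (511 to 522) and 46.7 rpm (46.3 to 47.1), a log2 ratio of 3.47. *AQP3* was found in 46.8% of NCs (41.1 to 52.5) and 15.6% of other cells (14.6 to 16.6), but this difference in share came from A952. There 56.4% of NCs (49.8 to 62.8) and 16.6% of other cells held it. In A951 the shares were 14.9% of NCs (7.40 to 25.7) and 13.1% of other cells (11.0 to 15.5), whose intervals overlap. The higher level in A951 rested on few cells with many reads, since 1 cell held 39.9% and 10 cells 99.7% of the *AQP3* reads of its 67 NCs. Without the cell richest in *AQP3* in each class of A951 the levels were 182 and 37.0 rpm, a log2 ratio of 2.30. The median depth per NC was 154155 reads in A951 and 191336 in A952. With each cell reduced to 50000 reads, 21.5% of NCs of A951 (12.3 to 33.5) and 61.4% of A952 (54.8 to 67.8) still held a read of *AQP3*. Of the 7 NCs in the other tags, 1 in A953 and 1 in A954 held 5 reads or more. Which tissue each of the 2 tags marks is not known here, and the labels list NP of 1 animal alone.

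**Figure D2:**
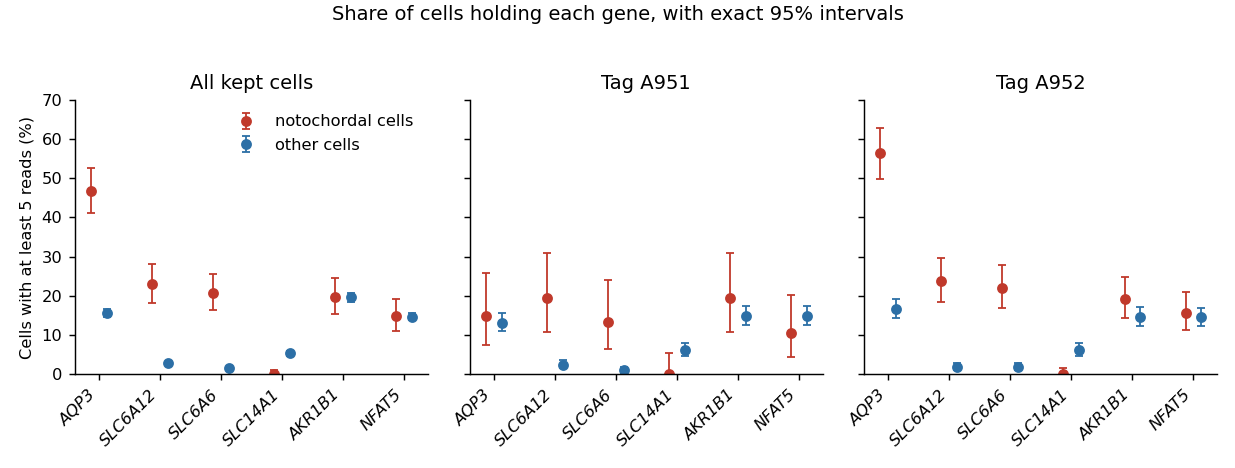
Share of cells with at least 5 reads of each gene (%) in NCs (red) and other cells (blue), in all kept cells and in the 2 tags with at least 20 NCs, with exact 95% binomial intervals. *AQP3* was found in 56.4% of NCs of A952 and 14.9% of NCs of A951, while the shares of *SLC6A12* and *SLC6A6* were above the other cells in both tags.

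NCs with any *AQP3* read had a median of 83.5 reads of it, and other cells with any had a median of 2.00. The median of NCs was 99.5 in A952 but 5.00 in A951, and that of other cells 2.00 in both. For *SLC6A12* the pooled medians were 31.0 and 1.00, and for *SLC6A6* 11.5 and 1.00. For *AKR1B1* (5.00 and 4.00) and *NFAT5* (2.00 and 2.00) the classes were alike. Reducing every cell to 50000 reads kept 299 NCs and 5147 other cells and left out 11 and 196. At least 1 read of *AQP3* was then found in 52.2% of NCs and 22.0% of other cells, but within A951 in 21.5% of NCs (12.3 to 33.5) and 19.9% of other cells (17.3 to 22.7). At the same depth a read was found of *SLC6A12* in 24.1% and 4.72% of the pool, and of *SLC6A6* in 24.7% and 4.90%. At full depth the shares with at least 1 read were 59.4% and 39.0% for *AQP3*, 31.9% and 9.73% for *SLC6A12*, and 31.6% and 14.8% for *SLC6A6*.

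**Figure D3:**
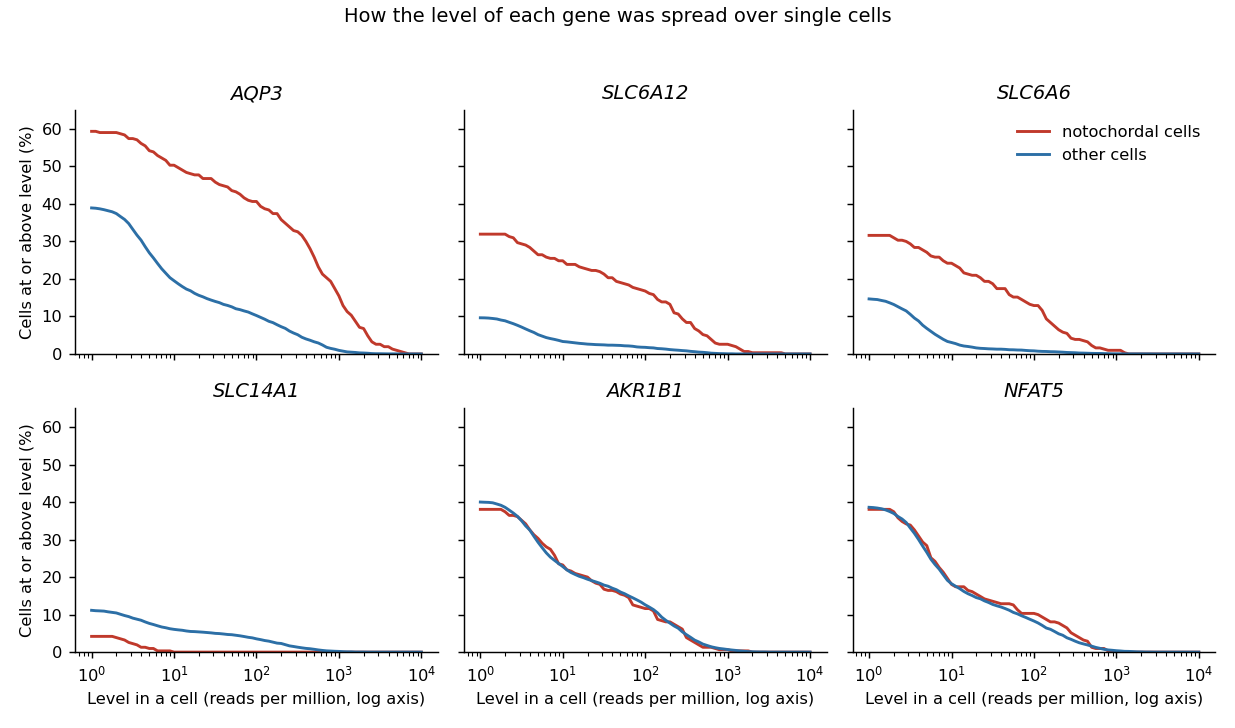
Share of NCs (red) and of other cells (blue) in which each gene reached at least the level on the x axis (rpm of that cell, log axis). The curves of *AQP3*, *SLC6A12* and *SLC6A6* are higher in NCs up to 1000 rpm, that of *SLC14A1* is lower in NCs and ends below 10 rpm, and those of *AKR1B1* and *NFAT5* run together.

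Stray reads can give a gene a share of cells that do not express it. *KRT19*, which the rule used and whose share is therefore a description only, had at least 1 read in 10.6% of other cells and in 9.40% to 11.6% of them in each tag. Since the rule fixed that share in part, it sets no background level for other genes. At 1 read *SLC6A12* was found in 9.73% and *SLC14A1* in 11.2% of other cells, and the part of background in these shares was not tested. At 5 reads the shares in other cells of A953, a tag with 5 NCs, were 2.70% for *SLC6A12*, 2.11% for *SLC6A6*, 12.5% for *AQP3* and 2.33% for *SLC14A1*. The part of stray reads in the levels of other cells was not tested. The rule left 53 other cells with at least 5 reads of *KRT19*, 35 of them in A952. In the 85 other cells with at least 5 reads of either marker *AQP3* was at 184 rpm, *SLC6A6* at 22.2 rpm and *SLC6A12* at 5.29 rpm. Without these 85 cells the levels in other cells were 44.8 rpm for *AQP3*, 3.13 rpm for *SLC6A6* and 7.73 rpm for *SLC6A12*.

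*SLC14A1* encodes UT-B, the urea transporter that red blood cells also carry, and was the one gene of the group that was lower in NCs. Its level in other cells was 16.6 rpm in A951, 15.2 rpm in A952, 4.48 rpm in A953 and 15.6 rpm in A954. In NCs it was 0.246 rpm in A951 and 0.195 rpm in A952, with no read in A953 and A954. A953 had the lowest level among other cells. Within A951 and within A952 the NCs were below the other cells. The 310 NCs held 13 reads in all, 1 in each of 13 cells, so that 4.19% had a read. Whether these were stray reads was not tested. None of the 310 NCs had 5 reads (exact interval, 0 to 1.18%), against 5.37% of other cells (4.78 to 6.01). That interval is for cells reaching 5 reads and sets no limit on the share of NCs that express the gene. The pooled levels were 0.197 rpm (0.105 to 0.336) and 12.8 rpm (12.6 to 13.0), a log2 ratio of -6.03. Where NCs were instead all cells with 5 reads of *KRT19* and *TBXT* together, the log2 ratio was -1.33. The transporter was held by a minority of other cells, 287 with at least 5 reads, of which 58 were in A951, 55 in A952, 32 in A953 and 142 in A954. Erythroid markers were almost absent. Of 11 listed 4 were counted, with a summed level of 0.151 rpm in NCs and 0.213 rpm in other cells, *SLC4A1* the most abundant, while the hemoglobin genes were not analysed.

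*AKR1B1* encodes aldose reductase, which makes sorbitol from glucose, and *NFAT5* the transcription factor of the osmotic response. *AKR1B1* was at 37.1, 37.6 and 110.2 rpm in NCs of A951, A952 and A953, with no read in the 2 NCs of A954. In other cells it was at 42.0, 40.4, 64.0 and 47.5 rpm in A951 to A954. The classes overlapped, the pooled log2 ratio was -0.33, and the shares were 19.7% of NCs (15.4 to 24.5) and 19.6% of other cells (18.5 to 20.7). *NFAT5* was at 24.3, 41.1, 28.7 and 7.61 rpm in NCs of A951 to A954, and at 32.6, 35.4, 34.6 and 28.6 rpm in other cells. Its NCs were below the other cells in A951, A953 and A954 and above them in A952. The pooled log2 ratio was 0.24, and the shares were 14.8% (11.1 to 19.3) and 14.7% (13.8 to 15.7). In A951 1 cell held 39.5% of the *NFAT5* reads of NCs. Without the cell richest in *NFAT5* in each class of A951 the levels were 15.1 and 31.6 rpm, a log2 ratio of -1.06. In the pool the messenger of *NFAT5* thus differed little between the classes. Those of the betaine and taurine transporters were 12.6-fold and 12.9-fold higher in NCs. Activity of NFAT5 depends also on its localization and modification, which were not measured.

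The 3 genes that were higher in NCs were each read in part of the NCs. Of the 310 NCs, 111 (35.8%) had 5 reads of none of *AQP3*, *SLC6A12* and *SLC6A6*, 133 (42.9%) of 1, 51 (16.5%) of 2 and 15 (4.84%) of all 3. Among other cells 81.1% had none and 1 cell had all 3. Betaine and taurine transporter were found together in 23 NCs where 14.7 would be if they were independent, in 4 against 1.75 within A951 and in 18 against 12.3 within A952. *SLC6A12* and *AQP3* were together in 41 NCs against 33.2, in 4 against 1.94 within A951 and in 37 against 31.6 within A952. *SLC6A6* and *AQP3* were together in 32 against 29.9, in 1 against 1.34 within A951 and in 30 against 29.3 within A952. Across the 299 NCs of equal depth no pair among the 6 genes had a Spearman correlation above 0.15, that of *SLC6A6* with *SLC6A12*. Across the 5147 other cells of equal depth no pair had one above 0.03. The genes most alike in pattern to *AKR1B1* over these 5147 cells, among 4449 genes, were *ND3*, *IGFBP6* and *COPS7A*, with correlations of 0.11, and those of *NFAT5* and *AQP3* did not pass 0.07. In counts this sparse such values are no finding.

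Within the NCs the 72 cells with at least 5 reads of *SHH* were compared with the 238 others. Since 62 of the 72 were in A952, the values of that tag are given. *AQP3* was at 637 rpm in the 62 *SHH* cells and 565 rpm in the other 174 NCs of A952, with shares of 71.0% and 51.1%. *SLC6A12* was at 63.0 and 126 rpm, with shares of 19.4% and 25.3%. *SLC6A6* was at 49.1 and 45.1 rpm, with shares of 30.6% and 19.0%. *SHH* cells were deeper, with a median of 226388 reads against 173339 in all tags, and the part of depth in these shares was not tested. In the 9 *SHH* cells of A951 *AQP3* was at 27.4 rpm, below the 332 rpm of the other 58 NCs there, with shares of 11.1% and 15.5%. Of the *AQP3* reads of these 67 NCs 1 cell held 39.9%.

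Among the other cells, those with at least 5 reads each of *ASPN* and *CILP*, genes of matrix proteins of cartilage, held little urea transporter. *SLC14A1* was at 3.95 rpm in these 885 cells and 15.5 rpm in the remaining 4458, and found in 1.81% and 6.08%. It was lower in this set within each tag, at 2.81 against 18.1 rpm in A951, 0.368 against 16.7 rpm in A952, 1.03 against 5.89 rpm in A953 and 6.12 against 19.6 rpm in A954. The set was deeper than the rest (medians of 289482 and 186911 reads). The 298 cells with at least 5 reads of *SFRP2*, an inhibitor of WNT signaling, had *SLC14A1* at 2.12 rpm against 13.6 rpm, again lower within each of the 4 tags. The 72 other cells with at least 5 reads of *COL10A1*, the collagen of hypertrophic chondrocytes, had *SLC6A12* at 22.1 rpm against 7.42 rpm in the rest and *NFAT5* at 13.5 against 32.1 rpm. The level of *NFAT5* was lower in these cells within each tag, with shares of 13.9% and 14.7% in the pool. Its share was lower in A951 (6.25% against 15.0%). In A952 (18.2% against 14.5%), A953 (15.0% against 14.7%) and A954 (16.0% against 14.7%) the share was higher. The level of *SLC6A12* was lower in A951 (0.862 against 7.76 rpm) and higher in the other 3 tags. Each tag held 11 to 25 of these cells, and in A952 1 cell held 83.1% of their *SLC6A12* reads and 80.0% of their *NFAT5* reads.

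Aldose reductase differed in another set. In the 148 other cells with at least 5 reads of *CXCL1*, a chemokine induced in inflammation, *AKR1B1* was at 124 rpm against 47.1 rpm in the rest, with shares of 37.2% and 19.1%. Within tags the levels were 185 against 37.7 rpm in A951, 96.3 against 37.6 rpm in A952, 139.8 against 61.1 rpm in A953 and 109 against 45.1 rpm in A954. The first 2 of these rest on 20 and 31 cells, of which 1 cell held 69.6% and 59.3% of the *AKR1B1* reads. The median depth of the *CXCL1* cells was 277111 reads. *SLC14A1* was at 4.58 rpm in them against 13.2 rpm in the rest, lower in 3 tags and at 16.7 against 16.6 rpm in A951, where 1 cell held 96.9% of the reads. In the cells with *ASPN* and *CILP* reads, *AKR1B1* was found in 31.2% against 17.3% of the rest, with levels of 61.6 and 46.4 rpm, although in A951 its level was lower there (15.1 against 44.8 rpm). In the *SFRP2* cells it was at 51.4 rpm against 49.8 rpm.

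The 287 other cells with at least 5 reads of *SLC14A1* were set beside the remaining 5056, with *AKR1B1* at 38.4 and 50.7 rpm and *NFAT5* at 30.3 and 31.8 rpm. *AQP7*, another channel for water and glycerol, was at 20.2 rpm in them and 10.2 rpm in the rest, with shares of 9.41% and 4.87%, and *AQP3* at 62.6 and 45.7 rpm. Urea transporter and *AQP7* were found together in 27 other cells where 14.7 would be if they were independent. *AQP7* was also above that number with *AQP3* (66 and 42.5), *NFAT5* (59 and 40.2) and *SLC6A12* (10 and 7.51). It was close to that number with *AKR1B1* (54 and 53.5) and *SLC6A6* (4 and 4.24). These 287 cells had a median of 229964 reads, and the remaining 5056 a median of 196903.

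**Figure D4:**
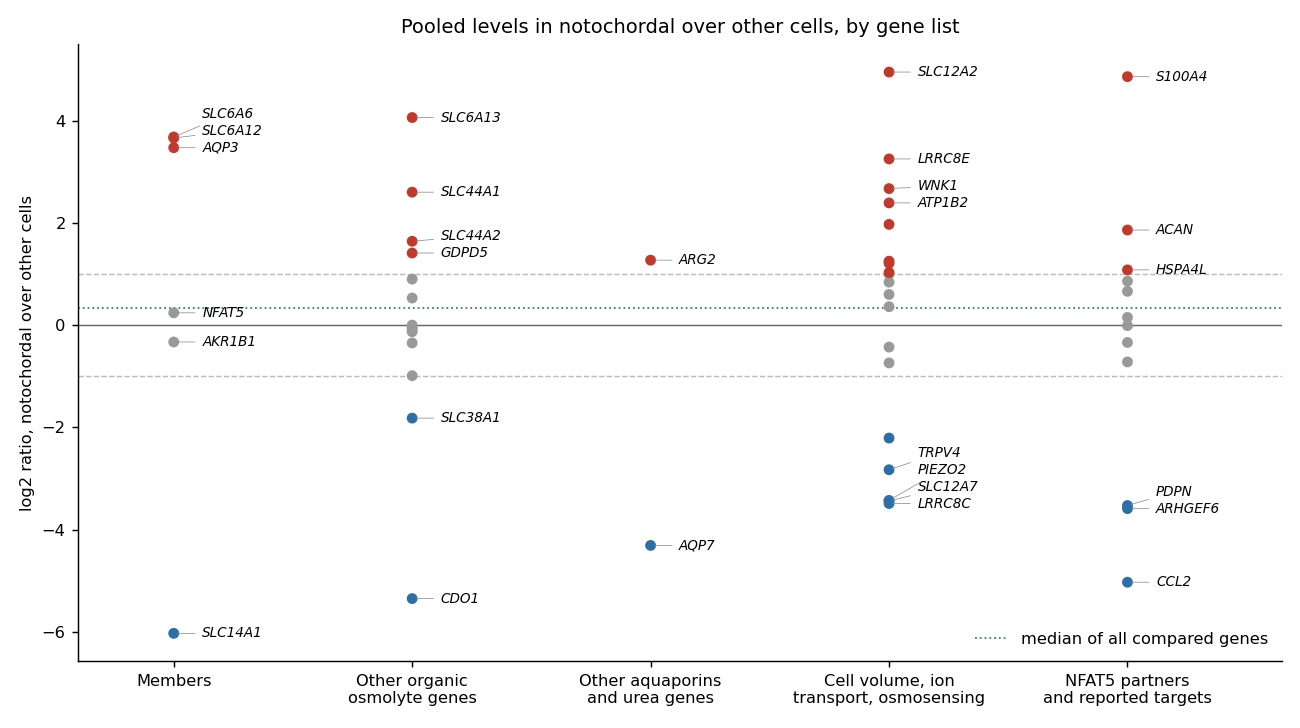
Log2 ratio of the pooled level in NCs over that in other cells for each compared gene of the group and of 4 lists of related genes. Red and blue points are at least 2-fold higher or lower in NCs, the genes with the largest ratios of each list are labelled, dashed lines mark 2-fold and the dotted line the median of all compared genes (0.34). *SLC12A2* has the highest ratio shown (4.95) and *SLC14A1* the lowest (-6.03).

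Of 20 listed further genes of osmolyte transport and synthesis, 17 were counted and 14 compared, of which 4 were at least 2-fold higher in NCs, 2 lower and 8 within 2-fold, with a median log2 ratio of -0.02. These counts are near the shares over all compared genes (25.7% higher and 11.0% lower). *ADO*, which makes the taurine precursor hypotaurine from cysteamine, had no read in NCs and was at 0.144 rpm in other cells. *SLC6A13*, a GABA and betaine transporter that lies beside *SLC6A12* in the RefSeq annotation, was at 22.3 and 1.34 rpm. *SLC44A1*, a transporter of choline, the precursor of betaine, was at 283 and 46.8 rpm, and its relative *SLC44A2* at 579 and 185 rpm. *GDPD5*, which breaks down the osmolyte glycerophosphocholine, was at 39.6 and 14.9 rpm. *CDO1*, the enzyme that starts the synthesis of taurine from cysteine, was at 0.863 rpm in NCs and 35.3 rpm in other cells, a log2 ratio of -5.35. It was found in 0.645% of NCs and 13.6% of other cells. The taurine transporter and the first enzyme of taurine synthesis stood in opposite directions. Both of them, and *SLC6A13*, passed the limit on level through 1 class alone, so the contrast is a description only. *CSAD*, the next enzyme of that synthesis, chosen for mention after its values were seen, was at 11.7 rpm in both classes. *SLC38A1*, an amino acid transporter, was at 107 and 376 rpm. All but *SLC44A2* of these 4 higher and 2 lower genes were past 2-fold within A951 and A952 also.

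Aquaporins and urea handling genes outside the group were mostly below the level that could be compared. Of 15 listed, 14 were counted and 2 were compared. *AQP7*, which lies beside *AQP3* in the annotation, was at 0.545 rpm in NCs and 10.8 rpm in other cells, a log2 ratio of -4.31, and found in 0.323% and 5.11%. The neighbouring aquaporin genes differed in opposite directions, although *AQP7* passed the limit on level through other cells alone. *ARG2*, the mitochondrial arginase that releases urea from arginine, was at 29.1 and 12.0 rpm, a log2 ratio of 1.27. Its ratio was 0.88 within A951 and 1.28 within A952, so that it did not pass 2-fold in both tags. *SLC14A2*, the other urea transporter gene and the neighbour of *SLC14A1*, was at 0.272 and 0.231 rpm, with 5 reads in no NC and in 0.0561% of other cells. *MIP*, the aquaporin of the lens, had no read in NCs.

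Of 28 listed genes of cell volume and ion transport, 22 were counted and 19 compared. At least 2-fold higher in NCs were 8 and lower 5, with a median log2 ratio of 0.84, beside 25.7% higher, 11.0% lower and a median of 0.34 over all compared genes. *SLC12A2*, the cotransporter NKCC1 that takes up sodium, potassium and chloride, was at 369 rpm in NCs and 12.0 rpm in other cells, a log2 ratio of 4.95, and found in 65.8% and 6.31%. By tag it was at 413, 356, 319.7 and 1377 rpm in NCs and 18.1, 20.2, 9.61 and 8.58 rpm in other cells. *WNK1*, a kinase that senses chloride and acts upstream of NKCC1, was at 898 and 141 rpm. *OXSR1*, the kinase between them, named after its values were seen, was at 156 and 39.8 rpm. *SLC12A7*, the cotransporter KCC4 that releases potassium and chloride, was at 2.33 and 25.4 rpm. The uptake cotransporter and these kinases were thus higher in NCs and this release cotransporter lower, but *SLC12A7* passed the limit on level through other cells alone. However, *STK39*, the kinase paired with *OXSR1*, was within 2-fold (52.2 and 86.9 rpm), as was *SLC12A4*, another release cotransporter (118 and 65.9 rpm).

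Of the subunits of the volume-regulated anion channel, *LRRC8C* was at 19.5 rpm in NCs and 219 rpm in other cells and *LRRC8D* at 11.3 and 52.5 rpm, whereas *LRRC8E* was at 19.2 and 2.02 rpm. Of these, *LRRC8E* passed the limit on level through NCs alone. *LRRC8B* was within 2-fold (32.4 and 25.3 rpm), and *LRRC8A* is not analysed here. *TRPV4*, a cation channel that responds to osmotic load, was at 55.5 rpm in NCs and 395 rpm in other cells, and the mechanosensitive channel gene *PIEZO2* at 19.3 and 208 rpm, while *PIEZO1* is not analysed here. *ATP1B2*, a subunit of the sodium pump, was at 33.8 and 6.46 rpm. The log2 ratios of these genes other than *LRRC8B* within A951 and A952 passed 2-fold in the same direction as in the pool.

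Of 16 listed partners and reported targets of NFAT5 outside transport, 12 were counted and compared, with 3 higher, 3 lower and 6 within 2-fold and a median log2 ratio of 0.07. Over all compared genes 25.7% were higher and 11.0% lower. *S100A4*, a calcium-binding protein, was at 985 and 33.8 rpm and *ACAN*, the aggrecan core protein, at 14439.7 and 3968 rpm. *HSPA4L*, the osmotic stress protein OSP94, was at 35.6 and 16.9 rpm. *CCL2*, a chemokine, was at 3.66 and 119 rpm, *ARHGEF6* at 1.92 and 23.2 rpm, and *PDPN* at 34.9 and 403 rpm. Both *CCL2* and *ARHGEF6* passed the limit on level through other cells alone.

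Markers of other cell types were measured beside these results. Endothelial markers, 9 of 10 counted, summed to 20.4 rpm in NCs and 159.9 rpm in other cells, of which *ERG*, which chondrocytes also express, was 14.5 and 147 rpm, while *PECAM1* was at 1.17 and 0.651 rpm and *CDH5* at 0.227 and 0.183 rpm. Myeloid markers, 9 of 10 counted, summed to 24.7 and 37.2 rpm with *CD68* the most abundant. *CD14* was at 7.46 rpm in NCs and 3.15 rpm in other cells, but lower in NCs of A951 (0.0820 and 3.24 rpm) and higher in those of A952 (9.58 and 1.48 rpm). *LYZ* was at 5.21 and 0.714 rpm, *AIF1* had no read in NCs, and *S100A8* was at 51.0 rpm in other cells of A953 and 0.210 to 0.266 rpm in those of the other tags. Mural and smooth muscle markers, 6 of 7 counted, summed to 4831 and 182 rpm, of which *TAGLN* was 4686 and 129 rpm. Of the 4 that could be compared 3 were at least 2-fold higher in NCs, *TAGLN*, *ACTA2* (70.7 and 6.54 rpm) and *RGS5* (8.45 and 3.01 rpm). *ACTA2* was higher in NCs of A952 (90.1 and 4.69 rpm) and lower in those of A951 (1.97 and 10.2 rpm). *MYH11* was at 0.954 and 2.17 rpm and *CNN1* had no read in NCs. By tag the 6 mural markers summed to 4493, 5042, 1735 and 5986 rpm in NCs of A951 to A954 and 224, 320.1, 134 and 152 rpm in other cells. Bone cell markers, all 6 counted, summed to 8.84 and 63.8 rpm. *RGS5* passed the limit on level through NCs alone and had log2 ratios of 0.22 in A951 and 0.98 in A952. Thus *TAGLN* alone of the 4 was past 2-fold in both tags. The part of these markers in the higher levels of *AQP3*, *SLC6A12* and *SLC6A6* was not tested. Genes of unrelated tissues, 11 of 16 counted, had a read in a median of 1.29% of NCs and 1.09% of other cells per gene, the largest being *GFAP* at 34.8% and 47.9%.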

How the data were processed

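Sorted cells of AC and NP from 2 monkeys were sequenced in 1 pooled TAS-seq library. The authors aligned reads to the *Macaca fascicularis* genome (build not given in the sources used here) with HISAT2 2.2.1, assigned them by strand to whole genes with featureCounts 2.0.2 and split reads that map to several genes. The deposited values are raw read counts, spliced and unspliced together, without molecular identifiers. Near-identical copies can share reads. A further matrix of 1358 cells, absent from the labels, and the tag library were not used.

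Of 5723 cells, 49 tag doublets or untagged cells were left out, and limits of 200 to 9000 genes and under 5% mitochondrial reads removed 21 more. The 5653 kept cells had 24907 to 1290096 reads each. Doublets within a tag were not called. In ratios, 3 reads was the least a class could have. Python 3.11.15, numpy 2.4.6, scipy 1.17.1, pandas 2.3.3 and matplotlib 3.10.9 were used, and the ratios were tested on simulated data.

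The genes, lists and cell sets were chosen with earlier results of these data known. All genes of the group are named, and of each list up to 4 genes past 2-fold in each direction and genes without a read. *OXSR1*, *STK39*, *LRRC8D*, *LRRC8B*, *CSAD*, *SLC14A2*, *SLC12A4* and some markers of other cell types were named beyond this, after their values were seen. A set of cells with *PRG4* reads held 5328 of the 5343 other cells and was not compared. Some listed genes are not reported here. Gene order came from the RefSeq table of T2T-MFA8v1.1, which lists 7 of the 8 genes. Alternatives were other rules for NCs, limits on cells, scalings, depth, level filters and leaving out each tag. Values without other cells holding 5 reads of either marker, without the richest cell, and within tags for sets of cells were added after the data were seen.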

Additional observations from a re-analysis of the deposited data

Results flagged for a closer look

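The level of *SLC14A1* in other cells of A953 was 4.48 rpm, far from the 15.2 to 16.6 rpm of the other 3 tags, by Dixon's criterion for 4 samples (gap over range 0.884). The criterion flags about 1 in 20 groups by chance, and it was applied to 6 genes. The share of cells with at least 5 reads was also lowest in A953, at 2.33% against 6.19% to 6.59%. The median depth of these cells was 197492 reads, between those of the other tags. The tags are not replicates of a group and their tissues are not known here.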

How the results depend on the processing

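In 13 alternatives *SLC6A6* kept a log2 ratio of 3.35 to 3.94, *SLC6A12* of 3.07 to 3.75 and *AQP3* of 2.60 (without A952) to 3.56, and *AKR1B1* (-0.66 to -0.05) and *NFAT5* (-0.34 without A952 to 0.35) stayed within 2-fold. *SLC14A1* ranged from -6.38 to -1.33, the last where *KRT19* and *TBXT* reads together had to reach 5. Without a limit on level, 5050 genes were higher and 2022 lower in NCs, in place of 2354 and 1008. With a limit of 20 rpm, 1313 were higher, and the number of genes of the group that were lower was 0, since *SLC14A1* was no longer compared. Leaving out each tag gave 2358 to 2572 genes higher and 1040 to 1248 lower, with 3 genes of the group higher and 1 lower each time. The share of higher among all differing genes, 70.0%, was 53.2% after centring on the median (1643 higher, 1447 lower) and 60.2% without the 50 most abundant genes (1988 higher, 1317 lower, median log2 ratio 0.13). Centring moved each ratio by 0.34 and changed the call of none of the 6 genes. Ratios within tags were given as values and not tested, since the labels give the tags no group. The 7 NCs of A953 and A954 give wide intervals. In NCs of A951 the levels of *AQP3*, *SLC6A12*, *SLC6A6*, *AKR1B1* and *NFAT5* rest on few cells.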
